A study of Mus musculus with 6 samples.

Results

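The nuclear genes for respiratory complexes II, III, IV and V and for cytochrome c were described in mouse hearts 7 days after myocardial infarction. The set holds the protein-coding genes named Sdha, Sdhb, Sdhc, Sdhd, Cyc1 and Cycs, and those whose names begin with Uqcr, Atp5, Cox5, Cox6b, Cox6c, Cox7b or Cox7c. This rule takes 40 gene identifiers under 39 symbols, out of 35498 genes with a transcript in the tables. They are 4 genes of complex II, 9 of complex III, 1 for cytochrome c, 8 of complex IV and 18 of complex V. The names, not the measured values, decided membership, though the set was chosen with earlier results of these data known.

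The Runx1_FB_KO mice (n = 3) had the genotype Postn CreER+/-; Runx1 fl, and the CTL mice (n = 3) had Postn CreER+/-; Runx1 WT. Runx1_FB_KO replicate 1 was male and replicates 2 and 3 female, while CTL replicate 1 was female and replicates 2 and 3 male. All were C57BL/6J mice aged 8 to 10 weeks with an infarct made by ligating the left anterior descending (LAD) coronary artery, and all ate a tamoxifen diet from the operation until collection on day 7. RNA with poly-A tails was sequenced from ventricle below the ligature. Tamoxifen activates the CreER recombinase, and the Postn (periostin) promoter limits it largely to activated fibroblasts, so other cells of the knockout hearts keep Runx1. The samples are whole tissue, in which fewer cells of a type and less RNA per cell cannot be told apart. The question was how loss of the transcription factor Runx1 in Postn-expressing cells changes the infarcted heart.

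Complex II oxidises succinate and passes electrons to ubiquinone, complex III passes them to cytochrome c, and complex IV passes them to oxygen. Complexes III and IV pump protons across the inner mitochondrial membrane, and complex V, the ATP synthase, uses that gradient to make ATP. All subunits of complex II and most subunits of the others are encoded in the nucleus, and the beating heart muscle cell is among the cell types richest in them.

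The libraries ran from 16598561 to 19987279 reads as estimated by Salmon. Runx1 itself was at 17.5, 10.8 and 67.4 counts-per-million (CPM, scaled by TMM) in Runx1_FB_KO replicates 1, 2 and 3, and at 96.4, 86.9 and 85.5 CPM in CTL replicates 1, 2 and 3. Its log2 fold change was -1.48 ± 0.63 (SE) with an edgeR adjusted p of 0.154, and Runx1_FB_KO replicate 3 lay close to the CTL libraries. Over log2 CPM of all genes, that replicate correlated at 0.924 and 0.913 with the other Runx1_FB_KO libraries and at 0.956 to 0.969 with the CTL libraries. The summed level of 15 cardiomyocyte markers was 36740 to 74600 transcripts-per-million (TPM) in Runx1_FB_KO and 18880 to 21880 TPM in CTL. In CPM all 15 were higher in every Runx1_FB_KO library than in any CTL library, as were 20.2% of all genes tested. Transcripts of the mitochondrial genome were 24.5%, 19.6% and 10.4% of all reads in Runx1_FB_KO, against 5.69%, 7.11% and 5.36% in CTL.

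With all 6 libraries, none of the respiratory genes passed the threshold, although most were higher in every Runx1_FB_KO library. Of the 40 genes, 38 passed the filter on low counts. By edgeR's quasi-likelihood test with Benjamini-Hochberg adjustment over 14237 genes, 0 of the 38 were higher and 0 lower at an adjusted p of 0.05, and 0% of all genes were called in either direction. At an unadjusted p of 0.05, 36 of the 38 were higher, against 19.3% of all genes tested, and 0 were lower, against 13.1%. The Runx1_FB_KO and CTL libraries did not overlap for the same number, 36 genes, all of them higher in Runx1_FB_KO, while 20.2% of all genes tested were higher without overlap; 0 were lower without overlap, against 18.8%. The median log2 fold change was 1.76 over the 38 genes and -0.06 over all genes tested, with a range of -0.06 (Cox6b2) to 2.26 (Sdha).

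The calls turned on 1 library and on the tool. Without Runx1_FB_KO replicate 3, 37 of the 38 genes were higher in scaled counts at an edgeR adjusted p of 0.05. So were 25.1% of all genes tested, and the median of the set was 2.13. DESeq2 called 36 of the genes higher with all 6 libraries, against 10.3% of the genes it tested, or 15.3% on the genes that edgeR tested. edgeR called 36 at an adjusted p of 0.1, against 12.5% of all genes, and 30 at an adjusted p of 0.05 with no low-count filter, against 4.21%. With the replicate number as a block it called 0 at an adjusted p of 0.05 and 36 at an unadjusted p of 0.05, against 16.4%. limma-voom called 0 at an adjusted p of 0.05 and 36 at an unadjusted p of 0.05, where it called 17.7% of all genes higher. When each library's cardiomyocyte score (the mean log2 CPM of the 15 markers) was added as a covariate, the median was -0.31. Then 0 of the 38 genes were higher at an unadjusted p of 0.05, against 3.14% of all genes, and 1, Atp5g2, was lower, against 1.83%. The marker levels did not overlap between the groups, so genotype and cardiomyocyte content cannot be told apart in these 6 libraries.

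**Figure D1:**
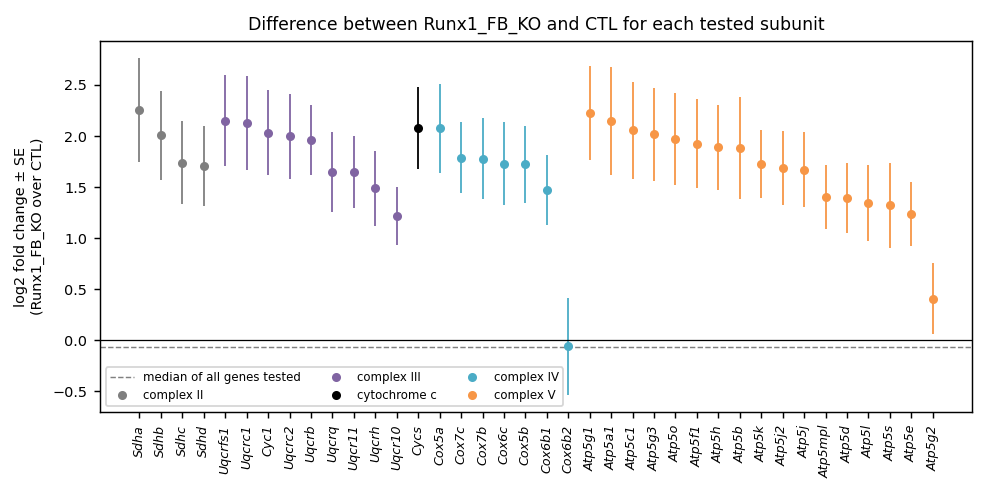
Log2 fold change of Runx1_FB_KO over CTL (vertical axis) with its standard error (bars) for the 38 tested genes, ordered by complex and by size, from edgeR on 3 libraries of each group. The points lie between -0.06 and 2.26, and Cox6b2 and Atp5g2 (0.41) stand below all the others; the dashed line marks the median of all genes tested, -0.06.

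Complex II is the succinate dehydrogenase. Sdha, the flavoprotein that holds the catalytic site, was at 1459, 2062 and 496 CPM in the Runx1_FB_KO libraries and at 288, 305.5 and 247 CPM in the CTL libraries. Sdhb, the iron-sulfur subunit, was at 628.5, 783 and 228.5 CPM in Runx1_FB_KO and at 137, 141 and 129.6 CPM in CTL. Every Runx1_FB_KO library was above every CTL library for both, and replicate 3 was the lowest of its group. The log2 fold changes were 2.26 ± 0.51 (SE) for Sdha and 2.01 ± 0.44 for Sdhb, each with an edgeR adjusted p of 0.0682. Sdhc and Sdhd anchor the enzyme in the membrane. Sdhc was at 428.5, 581 and 183 CPM in Runx1_FB_KO and at 117, 129 and 112 CPM in CTL. Sdhd was at 397, 492 and 167 CPM in Runx1_FB_KO and at 121, 107 and 94.9 CPM in CTL. Neither overlapped between the groups, and their log2 fold changes of 1.74 ± 0.41 and 1.71 ± 0.39 were also at an edgeR adjusted p of 0.0682. The median of complex II was 1.87 with all libraries, 2.27 without Runx1_FB_KO replicate 3 and -0.41 with the marker score in the model.

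Complex III carries electrons through cytochrome b, which the mitochondrial genome encodes, the Rieske protein and cytochrome c1. Uqcrfs1, the Rieske iron-sulfur protein, had the largest difference of the complex, with 711, 889 and 262 CPM in Runx1_FB_KO and 152, 144 and 123.5 CPM in CTL. Cyc1, which encodes cytochrome c1, was at 626, 789 and 253 CPM in Runx1_FB_KO and at 148, 130.1 and 129 CPM in CTL. Both were higher in all 3 Runx1_FB_KO libraries, with log2 fold changes of 2.15 ± 0.445 and 2.03 ± 0.415 and an edgeR adjusted p of 0.0682 for each. The core proteins Uqcrc1 and Uqcrc2, which face the matrix, had log2 fold changes of 2.13 and 2.0.

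The small subunits of complex III ranged lower. Uqcr10 had the smallest difference, with 162, 189 and 89.0 CPM in Runx1_FB_KO and 69.4, 59.2 and 61.2 CPM in CTL. Uqcrh, the hinge protein that sits next to cytochrome c1, was at 426, 562 and 209 CPM in Runx1_FB_KO and at 146.5, 155.5 and 125 CPM in CTL. The groups did not overlap for either gene, and the log2 fold changes were 1.21 ± 0.28 and 1.49 ± 0.36, with edgeR adjusted p values of 0.0682 and 0.0709. Uqcrb, Uqcrq and Uqcr11, also small subunits, had log2 fold changes of 1.96, 1.65 and 1.65. All 9 genes of complex III were higher without overlap, as were 20.2% of all genes tested. Their median was 1.96, which was 2.31 without Runx1_FB_KO replicate 3 and -0.17 with the marker score in the model.

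Cycs encodes cytochrome c, the soluble carrier between complexes III and IV and a trigger of apoptosis when it leaves the mitochondrion. It was at 471, 586 and 197 CPM in Runx1_FB_KO and at 112, 98.2 and 86.0 CPM in CTL. The lowest Runx1_FB_KO library, replicate 3, was above the highest CTL library. The log2 fold change was 2.08 ± 0.40 with an edgeR adjusted p of 0.0682, and -0.02 with the marker score in the model.

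Complex IV is cytochrome c oxidase, whose catalytic subunits are mitochondrially encoded and are surrounded by small nuclear subunits. Cox5a and Cox5b lie on its matrix side. Cox5a had the largest difference of the complex, with 522, 695 and 208 CPM in Runx1_FB_KO and 128, 111 and 98.3 CPM in CTL. Cox5b was at 459.7, 516 and 188.5 CPM in Runx1_FB_KO and at 128, 116 and 108 CPM in CTL. The groups did not overlap for either, and the log2 fold changes were 2.08 ± 0.435 and 1.72 ± 0.38, each with an edgeR adjusted p of 0.0682. Cox6c, a membrane subunit, was at 580.0, 721 and 233.5 CPM in Runx1_FB_KO and at 168, 148 and 147 CPM in CTL. Cox7b, another membrane subunit, was at 418, 476 and 161 CPM in Runx1_FB_KO and at 104, 107 and 95.8 CPM in CTL. Both were higher in every Runx1_FB_KO library, with log2 fold changes of 1.73 ± 0.41 and 1.78 ± 0.395. Cox7c, also in the membrane, had a log2 fold change of 1.79.

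Cox6b1 and Cox6b2 encode alternative forms of the subunit that bridges the enzyme's dimer on the intermembrane side, and Cox6b2 is the testis form. Cox6b1 was at 472, 605 and 245 CPM in Runx1_FB_KO and at 168, 159 and 149.6 CPM in CTL, without overlap and with a log2 fold change of 1.47 ± 0.34. Cox6b2 was at 1.18, 0.937 and 2.14 CPM in Runx1_FB_KO and at 1.73, 1.70 and 1.04 CPM in CTL. It rested on 12 to 42.1 reads per Runx1_FB_KO library and 21 to 39 reads per CTL library, the groups overlapped, and its log2 fold change of -0.06 ± 0.48 had an edgeR adjusted p of 0.936. Cox7b2, the second gene of the Cox7b pair, did not pass the filter, with 3, 3 and 0 reads in Runx1_FB_KO and 0 in each CTL library. The median of the 7 tested genes of complex IV was 1.73, which was 2.12 without Runx1_FB_KO replicate 3 and -0.22 with the marker score in the model.

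**Figure D2:**
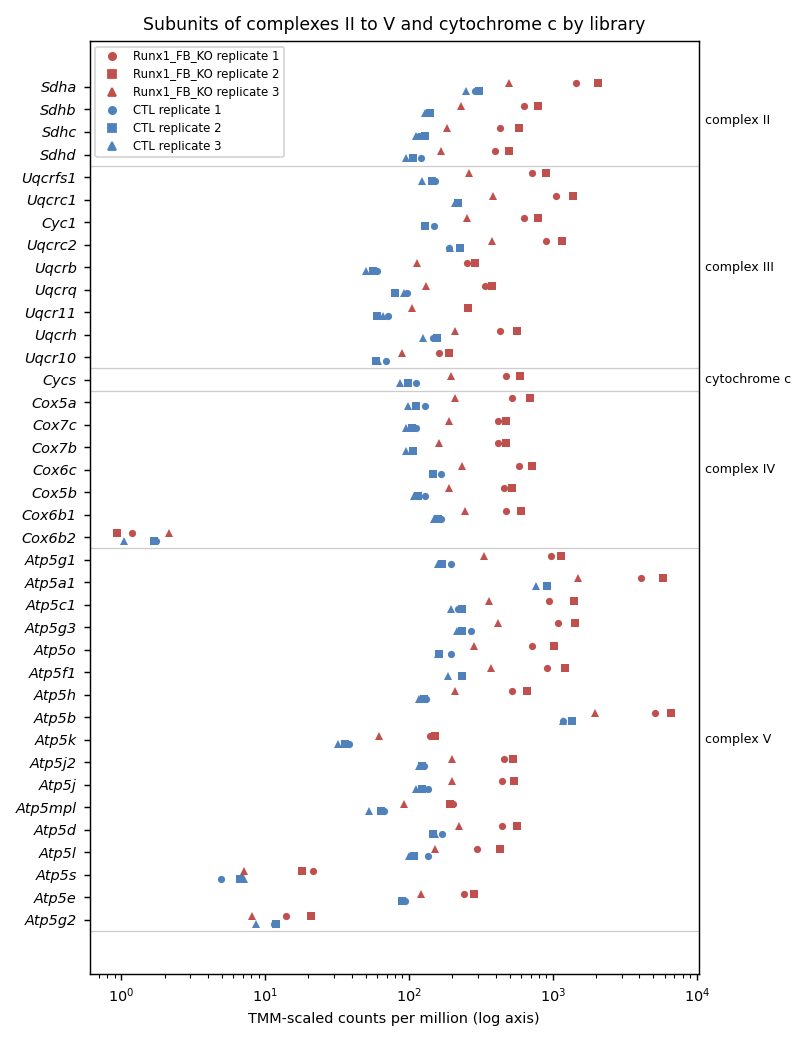
TMM-scaled CPM on a log axis, for the 38 tested genes in each library: Runx1_FB_KO in red and CTL in blue, with a symbol for each replicate and genes grouped by complex. Runx1_FB_KO replicate 3 (triangles) lies between the other Runx1_FB_KO libraries and the CTL libraries for most genes. Only Cox6b2 and Atp5g2 have groups that overlap, while 20.2% of all genes tested were higher without overlap.

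Complex V joins a catalytic head to a ring of c subunits in the membrane. Atp5b, the catalytic beta subunit, was at 5094, 6622 and 1969 CPM in Runx1_FB_KO and at 1184, 1362 and 1169 CPM in CTL. The groups did not overlap, and the log2 fold change was 1.88 ± 0.50 with an edgeR adjusted p of 0.0773. The other subunits of the head had log2 fold changes of 2.15 for Atp5a1 (alpha), 2.06 for Atp5c1 (gamma, the shaft that turns in the head), 1.39 for Atp5d (delta) and 1.23 for Atp5e (epsilon). In the stalk that holds the head still they were 1.97 for Atp5o (the oligomycin sensitivity protein), 1.93 for Atp5f1 (subunit b), 1.89 for Atp5h (subunit d) and 1.67 for Atp5j (factor 6). Among the small membrane subunits they were 1.73 for Atp5k (subunit e), 1.69 for Atp5j2 (subunit f), 1.41 for Atp5mpl and 1.34 for Atp5l (subunit g). Atp5s, the coupling factor B gene, was at 1.32. None of these groups overlapped in CPM, where 20.2% of all genes tested were higher without overlap. In TPM those of Atp5s overlapped, at 25.7, 13.6 and 12.5 TPM in Runx1_FB_KO and 9.56, 13.6 and 20.5 TPM in CTL. Those of Atp5l also overlapped in TPM, at 813, 1260 and 714 TPM in Runx1_FB_KO and 773, 594 and 587 TPM in CTL. A second identifier with the symbol Atp5o (ENSMUSG00000116933, GRCm38 chr16:91684398-91926982), which overlaps the first, did not pass the filter and held at most 3.64 reads in a library. The median of the 17 tested genes of complex V was 1.73, which was 2.08 without Runx1_FB_KO replicate 3 and -0.33 with the marker score in the model.

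The c ring of complex V is made from a single protein encoded by a family of genes. Atp5g1, Atp5g2 and Atp5g3 encode the same mature c subunit behind different import peptides. Atp5g1 was at 964, 1141 and 331 CPM in Runx1_FB_KO and at 195, 169 and 158 CPM in CTL. Atp5g3 was at 1079, 1420 and 414 CPM in Runx1_FB_KO and at 270.0, 235 and 215 CPM in CTL. Neither overlapped between the groups, with log2 fold changes of 2.22 ± 0.46 and 2.02 ± 0.45 and an edgeR adjusted p of 0.0682 for each. Atp5g2 was at 14.0, 20.7 and 8.07 CPM in Runx1_FB_KO and at 11.6, 11.9 and 8.65 CPM in CTL. Its groups overlapped, because Runx1_FB_KO replicate 3 was the lowest of all 6 libraries, and its log2 fold change was 0.41 ± 0.35 with an edgeR adjusted p of 0.423. It was 0.74 without that replicate (edgeR adjusted p = 0.0368) and -0.14 when libraries were scaled by size alone, where the median of all genes was -0.52. In TPM the direction was the other way. Atp5g2 was at 24.5, 37.6 and 24.6 TPM in Runx1_FB_KO and at 40.4, 41.8 and 31.7 TPM in CTL. These groups overlapped too, with means of 28.9 TPM in Runx1_FB_KO and 38.0 TPM in CTL.

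Within each library, Atp5g2 gave 0.593%, 0.700% and 0.958% of the TPM of the c subunit genes in Runx1_FB_KO, against 2.18%, 2.61% and 2.05% in CTL. Atp5g1 gave 53.3%, 51.5% and 49.9% in Runx1_FB_KO, against 46.8%, 46.7% and 47.0% in CTL, and Atp5g3 gave most of the rest in both groups. The groups did not overlap for any of these shares, which do not depend on the scaling between libraries. The shares restate the fold changes given above, which were smaller for Atp5g2 than for Atp5g1 and Atp5g3. With 3 libraries against 3, an exact two-sided permutation test cannot go below 0.1 for a single share or ratio. In all, 29 shares and ratios were computed in this way, and 19 of them did not overlap between the groups. Some are shares of the same total or the same pair in another unit, so they are not separate results. No such count was made for other genes.

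The promoters of the c subunit genes are shown because these genes encode the same mature protein, while the level and the difference of Atp5g2 were unlike those of Atp5g1 and Atp5g3. They come from RefSeq on GRCm38.p6, run from 250 bases before to 50 bases after the gene's start, and are written 5′ to 3′ on the gene's own strand, the minus strand for each. Capitals mark matches to the core motif of nuclear respiratory factor 1 (NRF1), a 10-base motif with 1 free position, and to AAGGTCA, the half-site of the oestrogen-related receptors (ERR), on either strand. The windows are chr11:96075582-96075881 for Atp5g1, chr15:102670998-102671297 for Atp5g2 and chr2:73911277-73911576 for Atp5g3. In GENCODE, used for the counts, Atp5g2 starts further upstream, at chr15:102672352, so its window lies inside the counted gene. The windows of Atp5g1 and Atp5g3 cover their GENCODE starts.
Atp5g1: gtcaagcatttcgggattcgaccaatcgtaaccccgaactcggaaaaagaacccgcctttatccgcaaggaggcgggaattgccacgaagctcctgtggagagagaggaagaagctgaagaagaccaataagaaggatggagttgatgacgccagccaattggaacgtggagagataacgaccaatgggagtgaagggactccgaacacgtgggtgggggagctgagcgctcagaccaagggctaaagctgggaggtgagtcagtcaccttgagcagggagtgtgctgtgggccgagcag
Atp5g2: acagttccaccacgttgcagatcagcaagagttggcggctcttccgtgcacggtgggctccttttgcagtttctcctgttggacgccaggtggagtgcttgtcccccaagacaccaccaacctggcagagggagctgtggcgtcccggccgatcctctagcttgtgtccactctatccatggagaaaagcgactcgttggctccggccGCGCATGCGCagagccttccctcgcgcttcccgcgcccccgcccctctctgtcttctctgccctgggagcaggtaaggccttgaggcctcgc
Atp5g3: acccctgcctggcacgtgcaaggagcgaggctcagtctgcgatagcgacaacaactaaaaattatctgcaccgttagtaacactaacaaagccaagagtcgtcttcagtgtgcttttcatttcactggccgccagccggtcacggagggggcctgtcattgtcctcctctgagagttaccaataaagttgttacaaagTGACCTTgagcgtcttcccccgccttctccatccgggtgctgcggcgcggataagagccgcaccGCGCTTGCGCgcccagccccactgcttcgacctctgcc
Atp5g3 held a match to each motif, Atp5g2 held a match to the NRF1 motif, and neither motif was found in the Atp5g1 window.

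Of the 39 symbols, 29 had a promoter in the same table. The NRF1 motif was in 9 of the 29 (31.0%), against 10.8% of 10820 promoters of tested protein-coding genes, and the ERR letters were in 5 (17.2%), against 3.91%. Both were in 3 promoters (10.3%), against 0.416%. These 3 were Atp5g3, Atp5k and Sdhd, and matches of different motifs overlapped in 0 of the 32 windows read. The matches in Sdhd and Atp5k are shown with their surroundings, in capitals, beside the ERR matches of Atp5e and Atp5l, the other genes that held one. All 4 genes lie on the minus strand, and the windows are chr9:50603911-50603936 and chr9:50603800-50603821 for Sdhd, chr5:108434432-108434457 and chr5:108434362-108434384 for Atp5k, chr2:174464063-174464085 for Atp5e and chr9:44920741-44920763 for Atp5l.
Sdhd, NRF1: gctggggtGCGCACGCGCggtggcag
Sdhd, ERR: ttgtagagTGACCTTgagccct
Atp5k, NRF1: tcactgcgGCGCATGCGCctttctgg
Atp5k, ERR: ccggcgcgAAGGTCAcggacaaa
Atp5e, ERR: ctcaggccTGACCTTcctgctgc
Atp5l, ERR: gggcagccTGACCTTggaaatgg
The letters CCGGAAGT, bound by GABPA, were in 3 promoters (10.3%, against 8.45%), AAGATGGCG, bound by YY1, in 2 (6.9%, against 3.3%), and TGACGTCA, the cyclic AMP response element, in 2 (6.9%, against 3.35%). GGGCGG, the box bound by SP1 and its relatives, was in 10 (34.5%), against 67.1% of the promoters of tested protein-coding genes. Each was searched on both strands, and a match is a run of letters, not a measured binding site. The windows with the YY1 letters, in Atp5j and Atp5j2, and both windows of Atp5d lie inside the counted genes, downstream of their GENCODE starts.

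Levels between genes were compared per length, as deposited TPM summed over a gene's transcripts. Summed over all 40 genes, the level was 36240, 46450 and 26020 TPM in Runx1_FB_KO and 20120, 18610 and 18160 TPM in CTL, a ratio of means of 1.91. On the scale of CPM the same ratio was 3.77. The TPM values are shares of all RNA in a library, mitochondrial transcripts included, and are divided by length, whereas CPM is not divided by length and was scaled by TMM factors of 0.732 to 1.078 in Runx1_FB_KO and 1.16 to 1.21 in CTL. Complex V held 56.1%, 56.6% and 55.3% of the summed TPM in Runx1_FB_KO and 56.1%, 56.3% and 55.1% in CTL. Complex III held 18.5% to 19.8% in Runx1_FB_KO and 19.3% to 20.5% in CTL, complex IV 19.7% to 20.2% in Runx1_FB_KO and 19.7% to 20.01% in CTL, and complex II 4.31% to 4.78% in Runx1_FB_KO and 4.09% to 4.39% in CTL. These shares overlapped between the groups. The exception was cytochrome c, with 0.413%, 0.370% and 0.398% in Runx1_FB_KO against 0.331%, 0.307% and 0.318% in CTL.

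**Figure D3:**
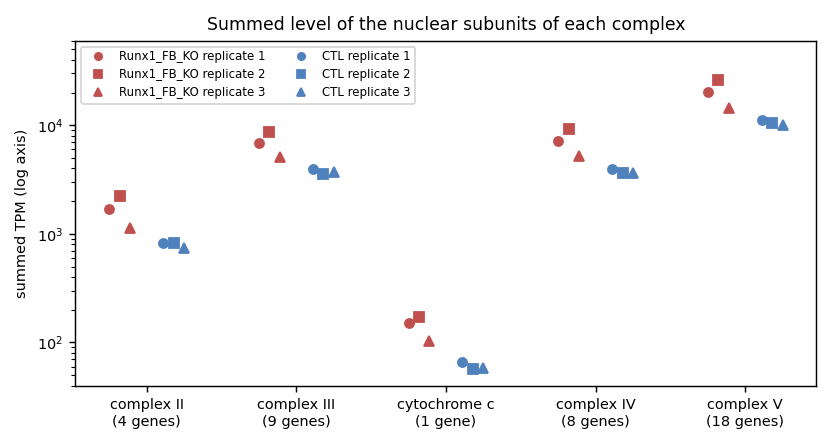
Summed TPM, on a log axis, of the nuclear genes of each complex in each library, with Runx1_FB_KO (red) left of CTL (blue) and a symbol for each replicate. In all 5 sets the 3 Runx1_FB_KO libraries lie above the 3 CTL libraries, and replicate 3 is the lowest of Runx1_FB_KO; for complex V it is at 14390 TPM, against 11280 TPM in the highest CTL library.

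Within the complexes, the highest mean TPM belonged to Sdhb in complex II, Uqcrh in complex III, Cox6c in complex IV and Atp5b in complex V. Atp5b was at 4339, 5273 and 2968 TPM in Runx1_FB_KO and at 2220, 2316 and 2136 TPM in CTL, the highest of all 40 genes in each library. Short transcripts not annotated as coding, such as Atp5b-206, carried part of that level, and the coding transcripts of Atp5b held 52.9%, 56.7% and 51.5% of its TPM in Runx1_FB_KO and 45.5%, 51.8% and 49.9% in CTL. On coding transcripts alone Atp5b was at 1009 TPM in CTL replicate 1, where Cox6c was at 1056 TPM. The coding transcripts of Cox5b held 32.7% to 34.9% of its TPM in Runx1_FB_KO and 30.3% to 38.9% in CTL. At the other end were Cox6b2, with 3.198, 3.96 and 11.0 TPM in Runx1_FB_KO and 12.2, 10.9 and 7.28 TPM in CTL, and Atp5s, Atp5g2 and the 2 genes that the filter removed.

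The complexes were compared by the size of their differences. The median log2 fold changes ran from 1.73 for complexes IV and V through 1.87 for complex II and 1.96 for complex III to 2.08 for cytochrome c, while the standard error of a single gene was 0.28 to 0.53. Genes are not replicates, so the order of the complexes has no test. Within complexes the spread was wider, from 1.21 to 2.15 in complex III and from 0.41 to 2.22 in complex V.

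The size of the difference varied with transcript length and level. Over the 38 tested genes, the log2 fold change had a Spearman correlation of 0.623 with the effective transcript length and of 0.76 with the mean CPM. Over all 14237 genes the values were 0.023 and 0.197. The 21 genes under an effective length of 500 bases, a bound chosen after the values were seen, had a median of 1.67, and the 17 longer genes had a median of 2.0. The medians of all genes on either side of that bound were -0.05 and -0.06. The points share their 6 libraries, and the correlations are a description over genes. The mean CPM includes the Runx1_FB_KO values that also enter the fold change, so part of that correlation is built in. CPM is not divided by length, so the correlations with length and with level are not separate. A list of 6 long transcripts of heart muscle, kept as a measure of RNA quality, moved with the set. Of these, 5 were higher and 0 lower at an unadjusted p of 0.05, against 19.3% and 13.1% of all genes tested. Their median log2 fold change was 1.93, and their summed level was 2955 to 7629 TPM in Runx1_FB_KO and 1011 to 1974 TPM in CTL. Ttn, Ryr2 and Myh6 are also among the cardiomyocyte markers, and the part of RNA quality in the differences was not tested.

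Pairs of subunits from the same complex were compared within each library. The TPM of Uqcr10, a small subunit, over that of Uqcrc1, a core protein, was 1.20, 1.19 and 1.76 in Runx1_FB_KO and 2.47, 2.04 and 2.32 in CTL. The TPM of Atp5e over that of Atp5b was 0.272, 0.296 and 0.343 in Runx1_FB_KO and 0.426, 0.374 and 0.438 in CTL. Neither ratio overlapped between the groups, also when taken from CPM. Uqcr10 had a smaller log2 fold change than Uqcrc1, and Atp5e a smaller one than Atp5b, so these ratios restate differences given above. Cox5a over Cox5b was 0.769, 0.890 and 0.764 in Runx1_FB_KO and 0.711, 0.651 and 0.573 in CTL. The ratio of their coding transcripts alone did not overlap either, at 2.17 to 2.71 in Runx1_FB_KO and 1.81 to 1.95 in CTL. Cox5a had the larger log2 fold change of this pair, so its ratio also restates differences given above. Cycs over Cyc1 did overlap, at 0.309 to 0.349 in Runx1_FB_KO and 0.331 to 0.341 in CTL. Beside these, the summed TPM of the respiratory genes over that of the 15 cardiomyocyte markers was 0.648, 0.623 and 0.708 in Runx1_FB_KO and 0.964, 0.851 and 0.962 in CTL. The ratio to the summed markers was lower in every Runx1_FB_KO library, but single markers differed. Taken over each marker alone, the ratio was lower in every Runx1_FB_KO library for 8 markers, overlapped for 6 and was higher for 1, Tnnt2, at 4.30, 4.36 and 4.19 in Runx1_FB_KO and 4.15, 3.42 and 3.51 in CTL. The log2 fold changes of Tnnt2 (1.54), Actc1 (1.51), Mybpc3 (1.33), Csrp3 (1.64) and Ryr2 (1.75) were below the median of the respiratory genes, 1.76, and those of the other 10 markers were above it.

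**Figure D4:**
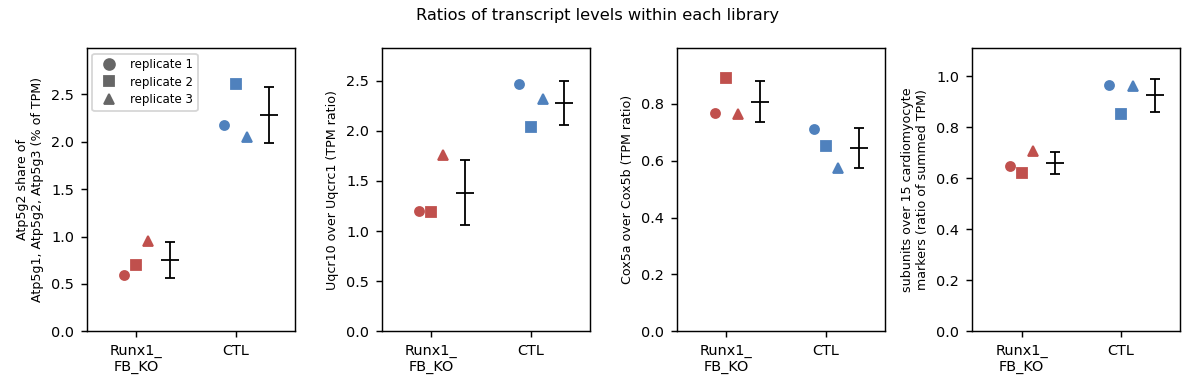
Shares and ratios of TPM within each library, with Runx1_FB_KO left of CTL, a symbol for each replicate, and the mean with its SD beside the points. In none of the 4 panels do the groups overlap: the Atp5g2 share, Uqcr10 over Uqcrc1 and the sum over the cardiomyocyte markers are lower in Runx1_FB_KO, and Cox5a over Cox5b is higher. The panels come from 29 shares and ratios, 19 of which did not overlap, and they restate differences in fold change given in the text.

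Atp5c1 differed between the groups in which transcript its reads were assigned to. Its transcripts Atp5c1-203 and Atp5c1-201 differ near their 3′ end, where the 10 exons of Atp5c1-203 include an exon 9 of 37 bases (GRCm38 chr2:10056770-10056806, minus strand) that the 9 exons of Atp5c1-201 skip. In human, the transcript of heart and skeletal muscle lacks the matching exon. The junctions are shown 5′ to 3′ from the GENCODE M21 transcripts, with the last 24 bases of exon 8 in lower case and the next exon, up to the end of the stop codon, in capitals.
Atp5c1-203: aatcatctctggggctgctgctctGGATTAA
Atp5c1-201: aatcatctctggggctgctgctctGTAA
The inclusion of the exon changes where the reading frame stops. Atp5c1-203 is 1166 bases long and Atp5c1-201 is 1060, so they also differ outside exon 9. The assigned shares are of whole transcripts and do not measure the inclusion of exon 9 alone. Atp5c1-203, with the exon, took 6.03%, 4.93% and 19.9% of the gene's estimated reads in Runx1_FB_KO and 34.9%, 29.5% and 33.9% in CTL. Atp5c1-201, without it, took 93.5%, 94.9% and 79.9% in Runx1_FB_KO and 64.9%, 70.3% and 65.7% in CTL. The groups did not overlap, and Runx1_FB_KO replicate 3 lay nearest to CTL. The mean share of Atp5c1-203 was 22.5 percentage points lower in Runx1_FB_KO by reads and 20.9 points lower by TPM, with an exact permutation p of 0.1, the smallest that 3 libraries against 3 allow. The cardiomyocyte markers moved with this share, and their part in it was not tested.

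Across the set, 10 genes had 2 or more coding transcripts with at least 5% of the gene's reads in some library, which gave 25 shares. For 5 of them, in Atp5c1, Sdhc and Atp5g1, the groups did not overlap, a portion of 20% beside 16.1% of the shares of all genes tested. Non-overlapping means that differed by at least 20 points, a bound chosen after the values were seen, were found for both Atp5c1 transcripts and for 3.78% of the shares of all genes tested. Sdhc-201 took 38.2%, 38.5% and 39.2% of the Sdhc reads in Runx1_FB_KO and 44.1%, 42.7% and 40.6% in CTL. The shares of the other 7 genes overlapped between the groups.

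**Figure D5:**
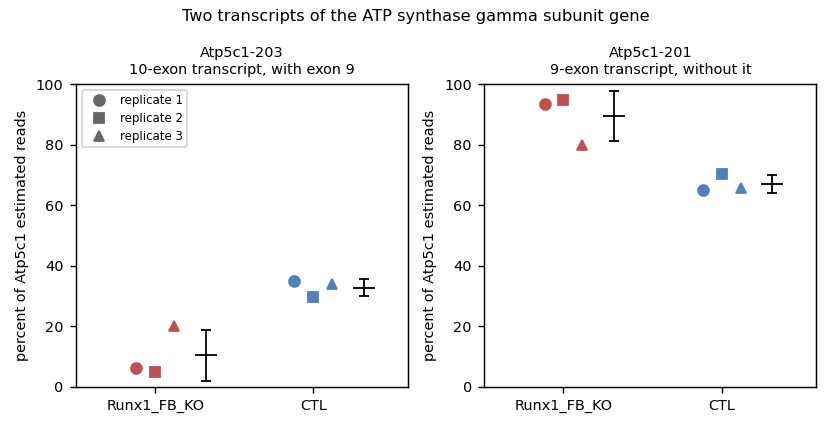
Percent of the estimated reads of Atp5c1 assigned to the transcript with exon 9 (left panel) and to the transcript without it (right panel), with Runx1_FB_KO left of CTL, a symbol for each replicate, and the mean with its SD beside the points. The transcript with exon 9 lies between 4.93% and 19.9% in Runx1_FB_KO and between 29.5% and 34.9% in CTL.

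The rest of the respiratory chain was described from listed genes. Over all genes tested, 19.3% were higher and 13.1% lower at an unadjusted p of 0.05. All 36 listed subunits of complex I, the NADH dehydrogenase, were higher at an unadjusted p of 0.05, with a median log2 fold change of 1.73, and the smallest p values belonged to Ndufa5 (2.11) and Ndufb5 (1.99). The 6 mitochondrially encoded subunits of complexes III to V were also all higher at that p, with a median of 1.99. Their summed TPM over that of the nuclear genes of complexes III to V was 6.97, 4.05 and 4.98 in Runx1_FB_KO and 3.96, 4.96 and 3.91 in CTL, and overlapped. Of 36 tested assembly factors of complexes II to V, 26 were higher and 0 lower at an unadjusted p of 0.05, with a median of 0.95. The smallest p values were those of Hccs (1.38), which attaches heme to cytochromes c and c1, and Taco1 (2.05), which activates translation of the first cytochrome oxidase subunit, while Cox18 was at -0.03. Pet117 had 0 reads in all libraries.

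Of 10 further cytochrome oxidase genes outside the rule, 6 were higher and 0 lower at an unadjusted p of 0.05. The shares of all genes tested were 19.3% and 13.1%. The smallest p values were those of Cox7a1 (log2 fold change 3.26) and Cox8b (2.98), forms found in heart and skeletal muscle, and Cox6a1, the form of most other tissues, was at -0.26. The TPM of the muscle form over that of the ubiquitous form was 4.11, 3.03 and 1.87 for Cox7a1 over Cox7a2 in Runx1_FB_KO and 0.952, 1.24 and 0.896 in CTL. For Cox6a2 over Cox6a1, named after its values were seen, it was 8.90, 9.90 and 2.13 in Runx1_FB_KO and 0.675, 0.961 and 0.653 in CTL.

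Of 12 tested regulators of respiratory genes, 7 were higher and 0 lower at an unadjusted p of 0.05, against 19.3% and 13.1% of all genes tested. Their median log2 fold change was 1.11. The smallest p values were those of Esrrb (2.34), an oestrogen-related receptor, and Ppargc1b (2.19), a coactivator of these receptors. Nrf1 was at -0.32, Gabpb1 at -0.25 and Yy1 at -0.01, opposite in sign to the median. None of the genes on these lists passed an edgeR adjusted p of 0.05 with all 6 libraries.

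Markers of other cells were described beside the respiratory genes. At an unadjusted p of 0.05, 13.1% of all genes tested were lower and 19.3% higher, and the counts for these short lists are to be read beside those shares. The 10 activated fibroblast markers, periostin and collagens among them, had a median log2 fold change of -1.27, with 2 lower at an unadjusted p of 0.05, and their summed TPM was 1473 to 10250 in Runx1_FB_KO and 13490 to 14690 in CTL. The 10 macrophage markers had a median of -0.95, with 5 lower, and summed TPM of 943.5 to 4331 in Runx1_FB_KO and 4836 to 7712 in CTL. The 8 endothelial markers had a median of -0.02, with 1 higher. The lists for fibroblasts in general, smooth muscle, lymphocytes, neutrophils and erythroid cells had medians of -0.55, -0.42, -2.23, -0.85 and -0.42. The general fibroblast list was mixed, from -0.845 to 1.32, with 1 of its 8 genes higher and 2 lower at an unadjusted p of 0.05. Brown adipocytes and skeletal muscle are other cells rich in mitochondria. The 5 brown adipocyte markers summed to 19.6 to 40.6 TPM in Runx1_FB_KO and 13.7 to 94.5 TPM in CTL, and the 7 skeletal muscle markers to 266 to 1046 TPM in Runx1_FB_KO and 283 to 473 TPM in CTL. Of 3 tested brown adipocyte markers, 1 was higher and 0 lower at an unadjusted p of 0.05, and of 4 tested skeletal muscle markers, 1 was higher and 1 lower. The higher ones were Cidea (log2 fold change 1.35) and Acta1 (1.26), each above CTL in every Runx1_FB_KO library in CPM, and the lower one was Tnnt3 (-2.05). Of the defining genes, Ucp1 was at 0 TPM in every library but CTL replicate 3 (0.12 TPM), and Myh4 was at most 0.0324 TPM in Runx1_FB_KO and 0.334 TPM in CTL. The part of the cardiomyocyte, fibroblast and macrophage markers in the differences of the respiratory genes was not tested beyond the covariate values above.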

How the data were processed

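The authors deposited 1 Salmon table per sample, with estimated counts (not always whole), TPM and effective length for 116546 transcripts. Salmon 1.5.2, DESeq2 1.44.0 and the build mm10 (GRCm38) are named by the submitters' processing notes. The annotation release is not given in the sources used here. Groups, replicate numbers and sex came from the labels. Nothing in the labels says more of the replicates than that they are separate samples, so p-values measure the spread between these samples.

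Transcripts were matched to genes with GENCODE M21 by identifier without version; 569 did not match and were dropped (at most 0.102% of reads). The deposited estimated counts were added up by gene and the sums rounded to whole numbers. filterByExpr kept 14237 genes, libraries were scaled by TMM, and Runx1_FB_KO was tested against CTL in edgeR 4.0.16 (quasi-likelihood) with genotype as the only term; p-values were adjusted by Benjamini and Hochberg's method across every gene tested, at a threshold of 0.05. CPM was scaled by the TMM factors. Standard errors are the absolute log2 fold change over the square root of F. TPM sums and transcript shares used the deposited values. Transcript shares are Salmon's estimates where transcripts have sequence in common; 8 processed pseudogenes with names of the set took at most 10.3 reads each.

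The members and lists were chosen with earlier results of these data known. Genes named with values by library are, in each complex, the one with the highest mean TPM and those with the largest and smallest log2 fold change; every gene whose groups overlap; paralog sets; complex II; Cyc1 and Cycs; and genes the filter removed. From the other lists of respiratory genes and their regulators, at most the 2 with the smallest p and any of opposite sign are named. The cell marker lists were not named by this rule. Alternatives were sex, replicate block or cardiomyocyte score as a term, RLE factors, library size alone, other filters, gene subsets, an effective-length offset, DESeq2 1.42.0, limma-voom (limma 3.58.1), a threshold of 0.1 and omission of each library. DESeq2 on the genes filterByExpr kept, CPM without TMM factors and ratios to single cardiomyocyte markers were added after seeing the data. The edgeR test was also run on simulated counts, and how many changed genes it recovered there is not reported here.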

Additional observations from a re-analysis of the deposited data

How the results depend on the processing

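Depth limits the statements on Cox6b2 and on the genes that the filter removed, which rest on at most 42.1 reads in a library. The number of genes higher at an adjusted p of 0.05 was 0 in the reported edgeR test, against 0% of all genes tested. It was 30 with no low-count filter, against 4.21% of all genes, and 36 at a threshold of 0.1, against 12.5%. DESeq2 called 36, against 10.3%, and also 36 on the genes that filterByExpr kept, against 15.3%. When each library was left out in turn the number was 0 to 37. The 37 were reached without Runx1_FB_KO replicate 3, where 25.1% of all genes were called higher. Leaving out each library put the median log2 fold change between 1.51 and 2.13. With library size alone the median was 1.19 over the set and 1.16 for complex IV, and the median of all genes was -0.52 in place of -0.06, so the set lay 1.71 above it, against 1.82 in the reported test; Atp5g2 was at -0.14.

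With the cardiomyocyte score in the model the medians were -0.31 over the set, -0.41 for complex II, -0.17 for complex III, -0.02 for cytochrome c, -0.22 for complex IV and -0.33 for complex V. At an unadjusted p of 0.05, 0 genes were higher, against 3.14% of all genes tested. At the same p 1, Atp5g2 (-1.31), was lower, against 1.83%. Of the 38 genes, 36 changed sign. In complex II, Sdha was at -0.49, Sdhb at -0.38, Sdhc at -0.44 and Sdhd at -0.37. In complex III, Cyc1 was at -0.12, Uqcrfs1 at -0.23, Uqcrc1 at -0.30, Uqcrc2 at -0.12, Uqcrq at -0.37, Uqcr11 at -0.15, Uqcrh at -0.38 and Uqcr10 at -0.17. Cycs was at -0.02. In complex IV, Cox5a was at -0.22, Cox5b at -0.25, Cox6b1 at -0.19, Cox6b2 at 1.06, Cox6c at -0.41 and Cox7b at -0.36. In complex V, Atp5a1 was at -0.47, Atp5b at -0.45, Atp5c1 at -0.48, Atp5d at -0.30, Atp5e at -0.34, Atp5f1 at -0.33, Atp5g1 at -0.21, Atp5g3 at -0.33, Atp5h at -0.33, Atp5j at -0.22, Atp5j2 at -0.18, Atp5k at -0.05, Atp5l at -0.54, Atp5mpl at -0.16, Atp5o at -0.40 and Atp5s at -0.66. Cox7c (0.03) and Uqcrb (0.17) kept their sign.

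Cox6b2 was at 0.06, 0.16, 0.06 and 0.04 without Runx1_FB_KO replicate 1, Runx1_FB_KO replicate 2, CTL replicate 1 and CTL replicate 2. The ratio of summed levels was 3.77 from CPM in place of 1.91 from TPM, and 4.10 for complex II, 3.76 for complex III, 4.23 for cytochrome c, 3.37 for complex IV and 3.79 for complex V. As shares of TPM in place of reads, the differences were -0.159 points for Atp5g1-201, 0.453 for Atp5g1-202 and 1.65 for Sdhc-202. The labels do not say whether the replicate numbers mark a pairing. Same-numbered libraries correlated at -0.051, 0.113 and 0.081 after removal of group means, and differently numbered ones at -0.174 to 0.128. With so few libraries these values cannot settle it. With the replicate block the median was 1.64 and 0 genes passed an edgeR adjusted p of 0.05. In that fit 36 were higher at an unadjusted p of 0.05, against 16.4% of all genes tested. Sex as a covariate gave 1.79. Without the TMM factors the ratio of summed CPM was 2.54. The mean ratio of the summed TPM to that of the cardiomyocyte markers was lower in Runx1_FB_KO by sum (a difference of -0.266) and over 10 markers alone, but higher by 0.59 over Tnnt2, 0.597 over Actc1, 0.633 over Csrp3, 8.2 over Mybpc3 and 14.7 over Ryr2. The cause of these shifts was not tested.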

Other observations

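Some values of the set belong to no comparison above, and the transcripts named here were chosen after their values were seen. Cyc1-204, an annotated transcript of Cyc1 that retains an intron, took 4.47%, 4.02% and 5.82% of the gene's estimated reads in Runx1_FB_KO and 13.2%, 10.5% and 13.5% in CTL, without overlap. Its reads themselves were 428, 406 and 288 in Runx1_FB_KO and 440.2, 305 and 349 in CTL, and overlapped.

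The TPM of Cox8b, a heart and skeletal muscle form of a cytochrome oxidase subunit outside the rule, over that of Cox8a was 10.4, 10.6 and 2.67 in Runx1_FB_KO and 0.946, 1.04 and 1.11 in CTL. Sdha over Sdhb overlapped, at 0.729 to 0.849 in Runx1_FB_KO and 0.637 to 0.739 in CTL.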
